A study of Mus musculus with 4 samples.

Results

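The genes described here build and move cilia. They were taken by symbol from a table of 22328 mouse genes, as those named Ift, Bbs or Dnah with a number, together with Dync2h1, Dync2li1, Dnaic1, Dnaic2, Foxj1 and Cep290. This gave 42 genes, and each had a row in both deposited tables. Of these, 24 were called transport genes, namely 13 Ift genes, 8 Bbs genes, Dync2h1, Dync2li1 and Cep290. The other 18 were called motile-cilium genes, namely 15 Dnah genes, Dnaic1, Dnaic2 and Foxj1.

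Cilia are thin, microtubule-based extensions of the cell surface. Most neurons and astrocytes, and many cultured cells, carry a single immotile primary cilium that holds receptors and is needed for hedgehog signalling, while the ependymal cells that line the brain ventricles carry many beating cilia. Both kinds are assembled by intraflagellar transport. IFT-B complexes move cargo outwards along the axoneme with kinesin-2, and IFT-A complexes with the dynein-2 motor, of which Dync2h1 is the heavy chain and Dync2li1 a light intermediate chain, return it to the cell body. The BBSome, a coat of Bbs proteins, carries membrane receptors along the same track, and Cep290 lies at the gate where the cilium meets the cell. The transport genes therefore serve both kinds of cilium. The axonemal dyneins encoded by Dnah genes and their intermediate chains Dnaic1 and Dnaic2 bend motile cilia, and Foxj1 is the transcription factor that switches on the genes for motile cilia.

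Poly(A)-selected RNA was sequenced from 4 samples, with 1 library in each group. For F1m-GCS hippocampus the mothers' diet held 5 g/kg of choline chloride between embryonic day 9 and birth, and for F1m-CON hippocampus it held 1.1 g/kg. All offspring then ate a basal diet and went through behaviour tests at 2 months of age. The labels do not say whether a library is 1 animal or several pooled. HT22 cells, an immortalised neuronal line from mouse hippocampus, were grown for 48 h with choline chloride at 70 µM in HT22 SUP and at 5 µM in HT22 CON. Since no group had a replicate library, no comparison below has a test or a replicate check, and a range in brackets is the 95% counting interval of the value before it. It covers counting error only.

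Reads counted in genes numbered 30265820 in F1m-GCS, 31175015 in F1m-CON, 13192007 in HT22 SUP and 18305096 in HT22 CON. Markers of neurons, astrocytes, oligodendrocytes, microglia and endothelium were present in both hippocampus libraries. The HT22 libraries were poor in neuronal markers. Rbfox3, a nuclear protein of mature neurons, had 1.40 RPKM (reads per kilobase of coding sequence per 1000000 mapped reads) in HT22 SUP and 0.531 in HT22 CON, against 197 in F1m-GCS and 196 in F1m-CON. Col1a1, a collagen gene of fibroblasts, had 90.5 RPKM in HT22 SUP and 122 in HT22 CON, against 2.161 in F1m-GCS and 2.045 in F1m-CON. Dcn, also a marker of fibroblasts and meninges, had 376.1 RPKM in HT22 SUP and 679.5 in HT22 CON. In hippocampus Dcn had 57.33 RPKM in F1m-GCS and 49.98 in F1m-CON. Lum, of the same list, went the other way, with 0.0941 RPKM in HT22 SUP and 0.548 in HT22 CON. In hippocampus Lum had 6.09 RPKM in F1m-GCS and 5.69 in F1m-CON. Camk2a, a kinase of forebrain neurons, had 29.2 RPKM in HT22 SUP and 12.6 in HT22 CON, against 1760.0 in F1m-GCS and 1835 in F1m-CON. The markers of the labelled neuronal type were thus read in the cell line, but far below their level in tissue. In bulk samples fewer cells of a type and less RNA per cell cannot be told apart, which holds for every value below.

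Motile-cilium genes were read at low levels in the hippocampus and were close to 0 in HT22 cells. Foxj1 had 520 reads in F1m-GCS and 575 in F1m-CON, against 0 in HT22 SUP and 2 in HT22 CON. These are 10.7 RPKM in F1m-GCS and 11.6 in F1m-CON, the highest level per length in this class. A count of 0 in HT22 SUP allows up to 3 reads, or 0.227 per 1000000 reads in genes (CPM). Dnaic2, an intermediate chain of the outer dynein arm, had 1.94 RPKM in F1m-GCS and 1.80 in F1m-CON, and Dnaic1, another, had 1.53 RPKM in F1m-GCS and 2.00 in F1m-CON. Dnah9, an outer-arm heavy chain, had 888 reads in F1m-GCS and 957 in F1m-CON, and 2 reads in each HT22 library. It was the heavy chain with the highest RPKM in hippocampus, at 1.72 in F1m-GCS and 1.81 in F1m-CON.

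The inner-arm heavy chain Dnah1 had 387 reads in F1m-GCS and 531 in F1m-CON, against 3 in HT22 SUP and 4 in HT22 CON. Dnah2, another inner-arm chain, had 266 reads in each hippocampus library, 1 in HT22 SUP and 0 in HT22 CON. Dnah5, an outer-arm chain, had 178 reads in F1m-GCS and 164 in F1m-CON, 1 in HT22 SUP and 0 in HT22 CON. In the HT22 libraries 14 of the 18 genes in SUP and 11 of the 18 in CON had at most 3 reads. The highest count there was that of Dnah17, an outer-arm chain known from sperm tails, with 110 reads in HT22 SUP and 100 in HT22 CON, against 64 in F1m-GCS and 38 in F1m-CON. Exons of Dnah17 share 93 bases with those of Pgs1 on the opposite strand, and Pgs1 had 1506 reads in HT22 SUP and 2021 in HT22 CON. The library kit named by the submitters does not mark strand, so reads of these genes cannot be told apart there. Dnah7a, Dnah7b and Dnah7c are near-identical copies on chromosome 1, and their counts are uncertain. The table gives Dnah14 and Dnah7c short models of 1578 and 612 coding bases, and Dnah7c was listed at 0 in every library.

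**Figure D1:**
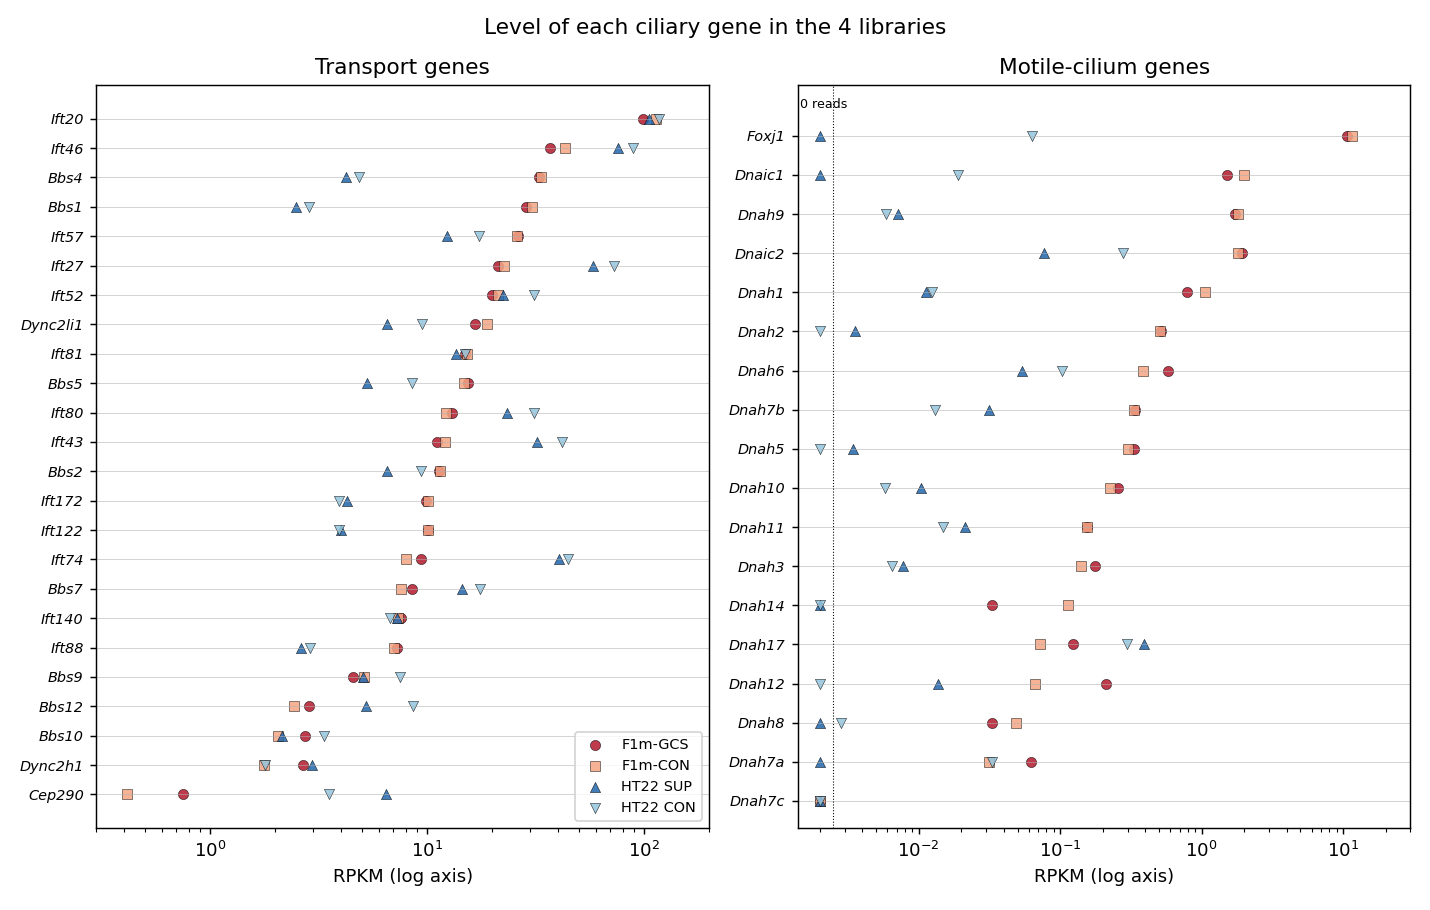
Level of each gene as the authors' RPKM (log axis) in F1m-GCS, F1m-CON, HT22 SUP and HT22 CON, with 1 point per library and genes ordered by F1m-CON. Points left of the dotted line had 0 reads. Transport genes lie between 0.414 RPKM (Cep290 in F1m-CON) and 118 RPKM (Ift20 in HT22 CON), while most motile-cilium genes are far lower in HT22 than in hippocampus.

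Transport genes were read in every library, with at least 50 reads for each of the 24 genes in each library. Their median was 11.2 RPKM in F1m-GCS and 11.8 in F1m-CON, and 6.52 in HT22 SUP and 8.98 in HT22 CON. Ift20, a small IFT-B subunit that also works at the Golgi, had the highest level per length, with 98.8 RPKM in F1m-GCS, 114 in F1m-CON, 105 in HT22 SUP and 118 in HT22 CON. Ift46, a further IFT-B subunit, had 37.1 RPKM in F1m-GCS and 43.3 in F1m-CON, and 76.2 RPKM in HT22 SUP and 88.8 in HT22 CON. The lowest in hippocampus was Cep290, with 0.751 RPKM in F1m-GCS and 0.414 in F1m-CON, against 6.47 in HT22 SUP and 3.55 in HT22 CON. Summed over the 24 genes the level was 776 CPM in F1m-GCS and 771 in F1m-CON, and 987 in HT22 SUP and 955 in HT22 CON. The summed level of the class was thus higher in the cell line than in tissue, while its median RPKM was lower. Its members differed between tissue and cell line in both directions.

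Set against HT22 CON, the F1m-CON hippocampus had 6 of the 24 transport genes higher by 2-fold or more and 8 lower by 2-fold or more. Over all 13924 genes with at least 50 reads in 1 of these libraries, 35.9% were higher and 27.6% lower by that size. Between F1m-GCS and HT22 SUP the counts were 7 higher and 7 lower, beside 36.7% and 27.0% of 13781 genes. Bbs1, a BBSome subunit, was 10.8-fold higher in F1m-CON (9.04 to 13.0), with 2139 reads in F1m-CON and 128 in HT22 CON. Bbs4, another subunit, was 7.0-fold higher (6.02 to 8.15), with 2063 reads in F1m-CON and 191 in HT22 CON. Ift172 and Ift88, both of IFT-B, were 2.61-fold and 2.46-fold higher, and Ift122, of IFT-A, was 2.58-fold higher. Other subunits of the same complexes went the other way. Bbs7 lay in F1m-CON at 0.436 of its HT22 CON level (0.394 to 0.482) and Bbs12, a chaperonin-like protein of BBSome assembly, at 0.286 (0.241 to 0.338). Ift74, of IFT-B, lay at 0.182 (0.165 to 0.199), and Cep290 at 0.118 (0.0965 to 0.144). Dync2h1 had 904 reads in F1m-CON and 583 in HT22 CON, a ratio of 1.00 (0.903 to 1.12), and Ift20 a ratio of 0.981 (0.911 to 1.06). These libraries differ in source, and the ratios describe them only.

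Of the motile-cilium genes 13 had at least 50 reads in F1m-CON or HT22 CON, and 12 of these met that minimum through the hippocampus library, so their direction follows from the choice of genes. Dnah9 was 309.6-fold higher in F1m-CON (85.5 to 2561) and Foxj1 186-fold (51.3 to 1540). Dnah2 was at least 57.4-fold higher and Dnah5 at least 35.4-fold higher, each against a limit of 3 reads in HT22 CON. Dnah6, an inner-arm chain, was 3.78-fold higher (2.59 to 5.69), with 32 reads in HT22 CON. Dnah17 lay at 0.246 of its HT22 CON level (0.165 to 0.361).

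**Figure D2:**
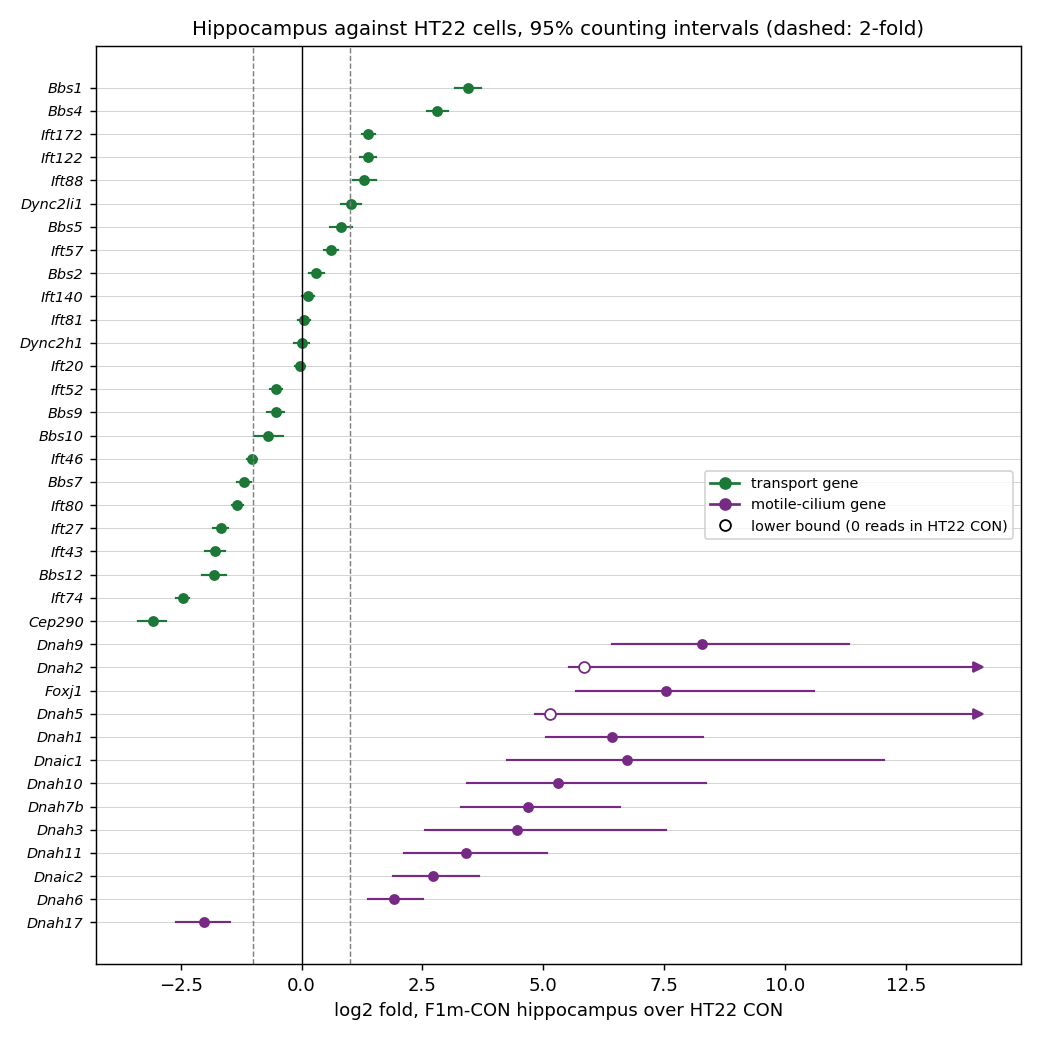
Fold of F1m-CON hippocampus over HT22 CON cells (log2 axis) for members that reached 50 reads in either library. Bars are 95% counting intervals, open circles are lower bounds against 0 reads, and arrowheads mark intervals with no upper end. Transport genes spread on both sides of 0, from Cep290 to Bbs1, and motile-cilium genes lie to the right apart from Dnah17.

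Ciliary genes are known for X-box motifs, the binding sites of RFX transcription factors, so the promoters were searched for them. The RefSeq table of GRCm38.p6 holds promoters for 36 of the 42 genes, each with 250 bases before the start of the gene and 50 from it. The half-sites GTNNCC and GGNAAC, in this order and 2 bases apart, were found on either strand in 4 of 20 promoters of transport genes, in 0 of 16 of motile-cilium genes, and in 1.29% of all 32851 promoters. The stricter pair GTTNCC and GGNAAC, every match of which is also a match of the first, was found in that of Bbs7 and in 0.451% of all promoters. Sites with other letters or another spacing were not counted by either pair. The 0 of 16 therefore does not mean that motile-cilium promoters lack X-boxes. The letters TGTTTAC, a forkhead core, were found in that of Dnah17 and in 3.65% of all promoters. The 4 promoters with a match are shown because they belong to genes on opposite sides of the comparison of tissue and cell line: Bbs1, Bbs4 and Ift57 were higher in F1m-CON and Bbs7 was lower. Ift57 had a ratio of 1.53 (1.38 to 1.69). Capitals mark the match.
Bbs1 (chr19:4906578-4906877, minus strand): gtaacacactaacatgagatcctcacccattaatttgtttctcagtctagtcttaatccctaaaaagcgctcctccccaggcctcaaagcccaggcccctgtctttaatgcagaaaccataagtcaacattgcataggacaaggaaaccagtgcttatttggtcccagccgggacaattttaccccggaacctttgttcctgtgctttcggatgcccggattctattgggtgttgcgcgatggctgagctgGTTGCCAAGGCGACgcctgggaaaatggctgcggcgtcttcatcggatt
Bbs4 (chr9:59353459-59353758, minus strand): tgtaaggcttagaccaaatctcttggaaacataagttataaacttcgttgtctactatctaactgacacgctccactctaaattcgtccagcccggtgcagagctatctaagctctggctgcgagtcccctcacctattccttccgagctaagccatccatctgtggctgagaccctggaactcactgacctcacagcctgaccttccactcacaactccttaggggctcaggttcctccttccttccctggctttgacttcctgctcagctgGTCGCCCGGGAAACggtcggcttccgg
Bbs7 (chr3:36613340-36613639, minus strand): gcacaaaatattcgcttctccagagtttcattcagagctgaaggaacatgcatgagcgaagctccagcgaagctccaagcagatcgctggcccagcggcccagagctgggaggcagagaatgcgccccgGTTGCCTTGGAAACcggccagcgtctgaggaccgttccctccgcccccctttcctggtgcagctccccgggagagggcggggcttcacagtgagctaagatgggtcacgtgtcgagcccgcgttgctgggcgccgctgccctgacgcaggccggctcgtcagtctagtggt
Ift57 (chr16:49699044-49699343, plus strand): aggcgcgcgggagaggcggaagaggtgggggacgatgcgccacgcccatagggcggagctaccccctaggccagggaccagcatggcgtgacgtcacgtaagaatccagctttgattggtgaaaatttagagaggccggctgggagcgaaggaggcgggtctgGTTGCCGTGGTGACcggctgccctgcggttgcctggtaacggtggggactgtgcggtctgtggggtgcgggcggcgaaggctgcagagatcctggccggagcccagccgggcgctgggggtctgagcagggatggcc
The match is a description of these letters and not a bound site.

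In the hippocampus, 5 of the 38 members that reached 50 reads in F1m-GCS or F1m-CON were at least 1.5-fold higher in F1m-GCS with an interval above 0, and 0 were lower by the same rule. They were Dnah12, Dnah17, Dnah6, Cep290 and Dync2h1. Of all 13392 genes measured, 1.8% were higher and 0.904% lower by this rule. At 2-fold, 1 member was higher (Dnah12), beside 0.224% of all genes higher and 0.172% lower. All 5 have coding sequences of more than 6000 bases, a property taken up below. The other 33 members lay within 1.5-fold or had intervals that included 0.

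Among the motile-cilium genes Dnah12, an inner-arm heavy chain at chr14:26693274-26891703 (mm10), had 56 reads in F1m-GCS and 18 in F1m-CON. Its log2 ratio was 1.59 (0.90 to 2.55). It reached the minimum of 50 reads through F1m-GCS, as did Dnah17, which had 64 reads in F1m-GCS and 38 in F1m-CON and a log2 ratio of 0.77 (0.21 to 1.43). For Dnah6 the counts were 274 in F1m-GCS and 187 in F1m-CON, with a log2 ratio of 0.60 (0.33 to 0.88). The other heavy chains did not move together. Dnah1 had a log2 ratio of -0.40 (-0.59 to -0.21), and Dnaic1, with 123 reads in F1m-GCS and 165 in F1m-CON, one of -0.36 (-0.72 to -0.02). Dnah3 had 0.33 (-0.14 to 0.83), Dnah10 0.21 (-0.15 to 0.58) and Dnah5 0.17 (-0.14 to 0.49). Dnah2 had 0.05 (-0.20 to 0.30) and Dnah9 -0.05 (-0.19 to 0.08). The regulator Foxj1 had -0.09 (-0.26 to 0.08). The median over the 14 measured motile-cilium genes was 0.09, beside -0.0042 over all measured genes. Summed over all 18 genes the level was 112 CPM in F1m-GCS and 113 in F1m-CON.

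For the other 4 motile-cilium genes no library of the hippocampus reached 50 reads. Dnah7a had 29 reads in F1m-GCS and 15 in F1m-CON, Dnah8 had 18 in F1m-GCS and 27 in F1m-CON, and Dnah14 had 2 in F1m-GCS and 7 in F1m-CON. Dnah7c had 0 in both.

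Among the transport genes Cep290, at chr10:100488289-100573655 (mm10), had 214 reads in F1m-GCS and 121 in F1m-CON. Its log2 ratio was 0.87 (0.55 to 1.21), at percentile 99.6 of measured genes. Exons of Cep290 share 881 bases with 4930430F08Rik on the opposite strand, which had 481 reads in F1m-GCS and 434 in F1m-CON. Dync2h1, at chr9:6928503-7184446, had 1327 reads in F1m-GCS and 904 in F1m-CON and a log2 ratio of 0.61 (0.48 to 0.73). Its partner in the same motor did not follow it. Dync2li1 had 675 reads in F1m-GCS and 785 in F1m-CON and a log2 ratio of -0.16 (-0.31 to -0.01). Its interval included 0 when length and GC were corrected for, at -0.12 (-0.27 to 0.03).

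The 13 Ift genes lay in a narrow range, between -0.20 for Ift46 and 0.25 for Ift74, with a median of 0.0010. Ift74 had 647 reads in F1m-GCS and 566 in F1m-CON (0.08 to 0.41), and Ift20 had 1509 reads in F1m-GCS and 1788 in F1m-CON and a log2 ratio of -0.19 (-0.29 to -0.09). The IFT-A subunits Ift122, Ift140 and Ift43 had 0.02, 0.06 and -0.11, each with an interval that included 0. Of the 8 Bbs genes Bbs10, a chaperonin-like assembly factor, was the highest, with 224 reads in F1m-GCS and 173 in F1m-CON and 0.42 (0.13 to 0.72). Bbs7 had 0.18 (0.03 to 0.34), and the other 6 had intervals that included 0, from -0.15 for Bbs9 to 0.25 for Bbs12. The median over the 24 transport genes was 0.01. Intervals lay above 0 for 5 of the 24 and below 0 for 3, beside 20.9% and 18.8% of all measured genes, and after a correction for length and GC described below for 3 and 2, beside 17.0% and 16.0%.

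**Figure D3:**
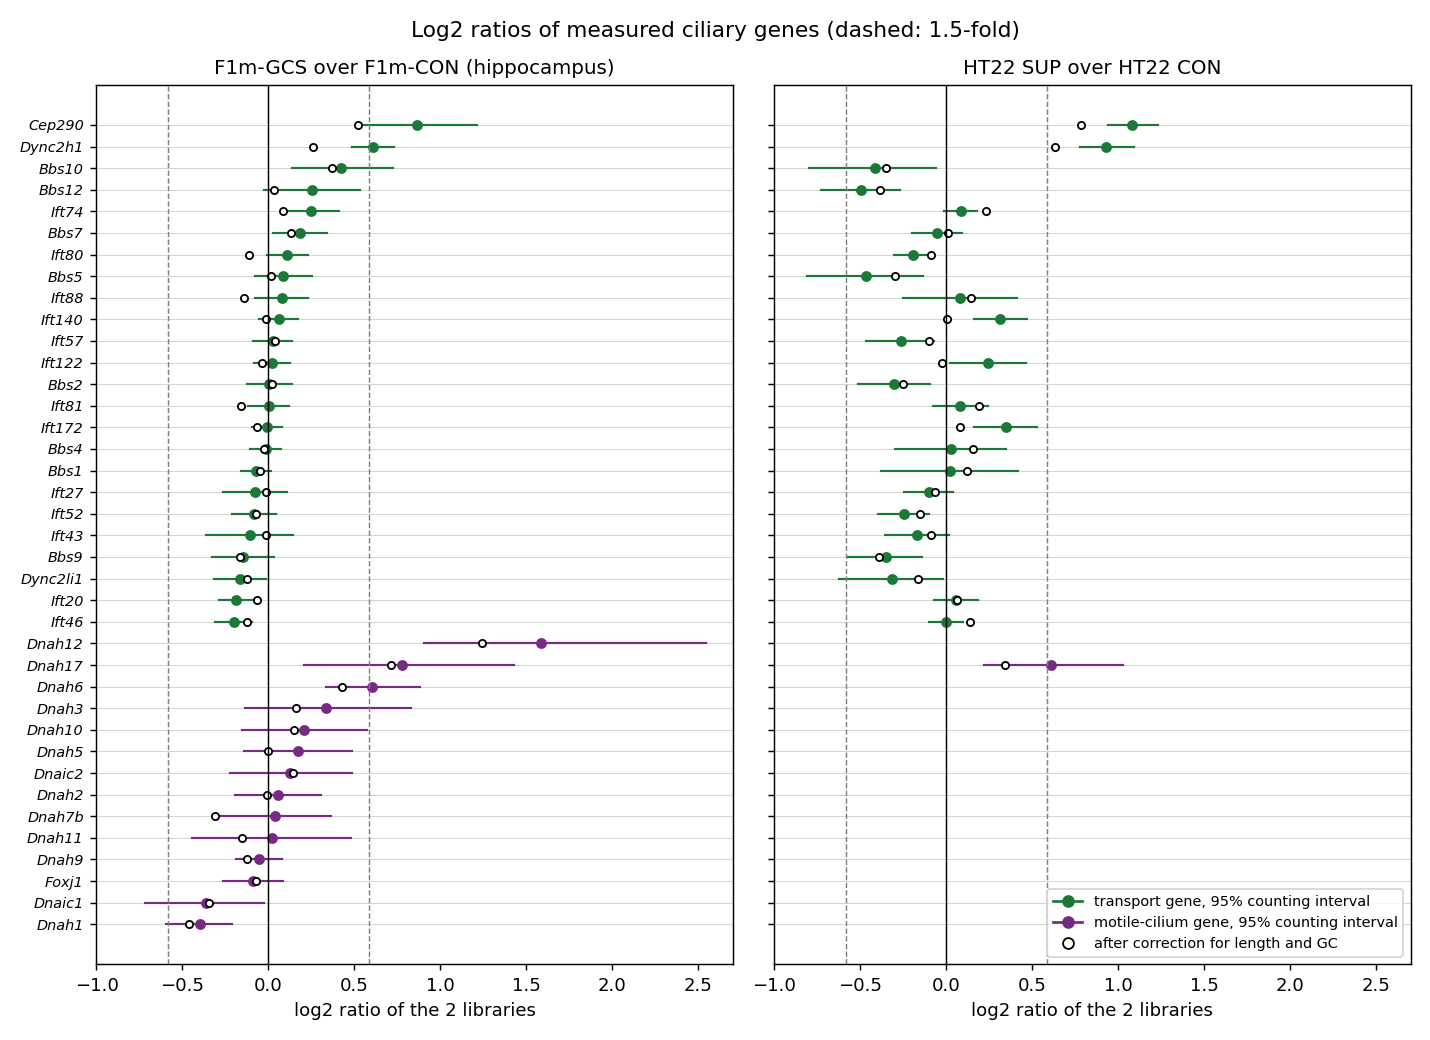
Log2 ratios of members that reached 50 reads in a library of the pair, F1m-GCS over F1m-CON at left and HT22 SUP over HT22 CON at right. Filled points with bars are ratios with 95% counting intervals, open points the ratios after correction for length and GC, and dashed lines mark 1.5-fold. Cep290 and Dync2h1 stand to the right in both panels, while most other transport genes lie near 0.

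In HT22 cells Cep290 and Dync2h1 were again the transport genes with the highest ratios, and they were 2 of 24 at least 1.5-fold higher in SUP, with 0 of 24 lower. Of all 10854 genes measured, 5.13% were higher and 2.89% lower by this rule. At 2-fold, 1 of the 24 was higher (Cep290), beside 2.22% of all genes higher and 0.525% lower. Cep290 had 1006 reads in HT22 SUP and 663 in HT22 CON, which is 76.3 CPM in SUP and 36.2 CPM in CON. Its log2 ratio was 1.08 (0.94 to 1.23). Dync2h1 had 796 reads in SUP and 583 in CON and a log2 ratio of 0.93 (0.78 to 1.09). Dync2li1 had 144 reads in SUP and 251 in CON and a log2 ratio of -0.31 (-0.62 to -0.02). The uncorrected ratios of this motor's subunits thus again lay on opposite sides of 0. With length and GC corrected for, that of Dync2li1 was -0.16 (-0.47 to 0.14), an interval that included 0.

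Within the Ift genes of HT22 cells the subunits with the longest coding sequences had the highest ratios. Ift172, with 470 reads in SUP and 517 in CON, had a log2 ratio of 0.35 (0.16 to 0.53). The IFT-A subunits Ift140 and Ift122 had 0.31 (0.16 to 0.47) and 0.24 (0.02 to 0.46), and the much shorter Ift43 of the same complex had -0.17 (-0.35 to 0.01). The lowest were Ift57 at -0.27 (-0.47 to -0.07), Ift52 at -0.25 (-0.40 to -0.10) and Ift80 at -0.20 (-0.30 to -0.09), all of IFT-B. Ift46 had 1443 reads in SUP and 2022 in CON, a log2 ratio of -0.0024 (-0.10 to 0.10).

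Bbs genes were lower in SUP than in CON more often than higher. Their summed level was 144 CPM in HT22 SUP and 171 in HT22 CON, and their median log2 ratio was -0.33, beside -0.05 over all measured genes. For 5 of the 8 the interval lay below 0 and for 0 of the 8 above it, and of all measured genes 32.7% had intervals below 0 and 22.4% above. Bbs12 had 233 reads in SUP and 460 in CON and a log2 ratio of -0.49 (-0.73 to -0.27), and Bbs5 had 113 reads in SUP and 219 in CON and -0.46 (-0.81 to -0.14). Bbs10 had -0.42 (-0.80 to -0.06), Bbs9 -0.35 (-0.57 to -0.14) and Bbs2 -0.30 (-0.51 to -0.09). Bbs7, Bbs1 and Bbs4 had -0.05, 0.02 and 0.03, with intervals that included 0. None of the 8 was beyond 1.5-fold. After correction for length and GC the median was -0.27, with the intervals of Bbs2, Bbs9 and Bbs12 below 0 and that of 0 genes above. This is 3 of 8, beside 24.6% of all measured genes below and 26.0% above. The BBSome subunit Ttc8, which has another kind of symbol, had 239 reads in SUP and 499 in CON and a log2 ratio of -0.57 (-0.81 to -0.35). Lztfl1, a regulator of the BBSome, had -0.48 (-0.87 to -0.11), while Arl6 and Bbip1 had -0.11 and -0.08 with intervals that included 0. Mkks, a further assembly factor, had 0.19 (0.04 to 0.33).

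Of the motile-cilium genes Dnah17 alone had 50 reads in an HT22 library, and its log2 ratio was 0.61 (0.22 to 1.03), on 110 reads in SUP and 100 in CON. Dnah6 had 14 reads in SUP and 32 in CON, Dnaic2 had 3 in SUP and 13 in CON, and Dnah7a had 0 in SUP and 10 in CON. All 18 genes together stood at 10.4% of their mean hippocampus level in SUP and 8.64% in CON. Without Dnah17 and Dnah6, which had the most reads in HT22 cells, the remaining 16 genes had 31 reads in HT22 SUP and 46 in HT22 CON. These are 2.35 CPM in SUP and 2.51 in CON, or 2.27% of the mean hippocampus level in SUP and 2.43% in CON. A class of 644 other genes was chosen for a hippocampus level of 50 CPM or more and an HT22 level below 1/100 of it. Its low level in HT22 follows from that choice and is no measure to set beside the motile-cilium genes. The class stood at 0.801% of the hippocampus level in SUP and 0.336% in CON. Neuronal markers had a summed 138 CPM in SUP and 54.8 in CON for 5 genes, none of them at 0. Only ciliary members were left out of the class, and Rbfox3 of these markers meets its rule. The class and the markers are therefore not separate observations. The part of hippocampal RNA in the motile-cilium counts of HT22 cells was not tested.

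Coding length, and in hippocampus GC content, moved with the ratios of the transport genes. GC was read from each gene's longest protein-coding GENCODE M21 transcript, with a value for 94.5% of all genes. In the hippocampus, the median log2 ratio of all measured genes was 0.11 in the longest of 10 groups by coding length and -0.09 in the shortest. It was 0.12 in the fifth of genes with the lowest GC. In HT22 cells the longest group had a median of 0.29 and the other 9 lay between -0.12 and 0.02. Over the 24 transport genes the rank correlation of the log2 ratio with coding length was 0.59 in hippocampus and 0.45 in HT22, and with GC it was -0.66 in hippocampus and 0.11 in HT22. All points of a comparison share the same 2 libraries. Cep290 has 7440 coding bases and 38.7% GC, Dync2h1 12942 and 43.5%, and Dnah12 6948 and 41.9%, while Dnah1 and Dnah9, which were not higher, have 53.4% and 51.0%. The motile-cilium genes did not all follow this division. Dnah17, which was higher, has 55.0% GC, and Dnah7b, with 12207 coding bases and 44.4% GC, had a log2 ratio of 0.04 in hippocampus. Over the 14 measured motile-cilium genes in hippocampus the rank correlation was 0.15 with coding length and -0.29 with GC.

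Genes outside the ciliary set were also divided by length and GC. In the hippocampus, 19 other measured genes had at least 6000 coding bases and under 42% GC, limits chosen after the values were seen. Their median log2 ratio was 0.58 (quartiles 0.51 and 0.63), and 9 of the 19 were at least 1.5-fold higher. With the same length and at least 50% GC, the median of 193 genes was 0.09, and 1 was higher. In HT22 cells both classes were high, with medians of 0.42 over 18 genes and 0.51 over 151 genes. Dync1h1, the heavy chain of cytoplasmic dynein 1, which works outside cilia, has 13935 coding bases and 53.7% GC. It had 17464 reads in F1m-GCS and 17267 in F1m-CON, a log2 ratio of 0.07 (0.04 to 0.10), and 13455 in HT22 SUP and 10052 in HT22 CON, a log2 ratio of 0.90 (0.87 to 0.94).

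A correction subtracted from each log2 ratio the median of the measured genes in the same group, with 10 groups by coding length and 5 by GC. In the hippocampus Cep290 then had 0.52 (0.20 to 0.87) and Dync2h1 0.26 (0.14 to 0.39), both short of 1.5-fold, and Dnah6 had 0.43 (0.16 to 0.71). Dnah12 had 1.24 (0.56 to 2.20) and Dnah17 0.72 (0.15 to 1.37), and these 2 of 38 members stayed higher by the rule, beside 1.11% of all genes higher and 0.869% lower. Since both reached 50 reads through F1m-GCS alone, nothing is read from this count. In HT22 cells Cep290 had 0.78 (0.64 to 0.93) and Dync2h1 0.63 (0.48 to 0.79), and both stayed higher, beside 4.19% of all genes higher and 2.09% lower. Dnah17 had 0.34 (-0.05 to 0.76). Ift172, Ift140 and Ift122 had 0.08, 0.0031 and -0.02. With length alone as the correction, 1 transport gene (Cep290) and 2 motile-cilium genes were higher in hippocampus, beside 1.57% of all genes higher and 0.866% lower, and 2 transport genes and 0 motile-cilium genes in HT22, beside 4.26% and 2.19%. The longest group held all measured genes from 3597 coding bases in hippocampus and from 3537 in HT22. For length and GC, Cep290 and Dync2h1 had 0.30 subtracted in HT22. The AT-rich and GC-rich genes of at least 6000 bases described above had medians of 0.42 and 0.51 there. In hippocampus 0.35 was subtracted, where those medians were 0.58 and 0.09. The part of length and GC in the ratios of Cep290 and Dync2h1 beyond this subtraction was not tested.

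**Figure D4:**
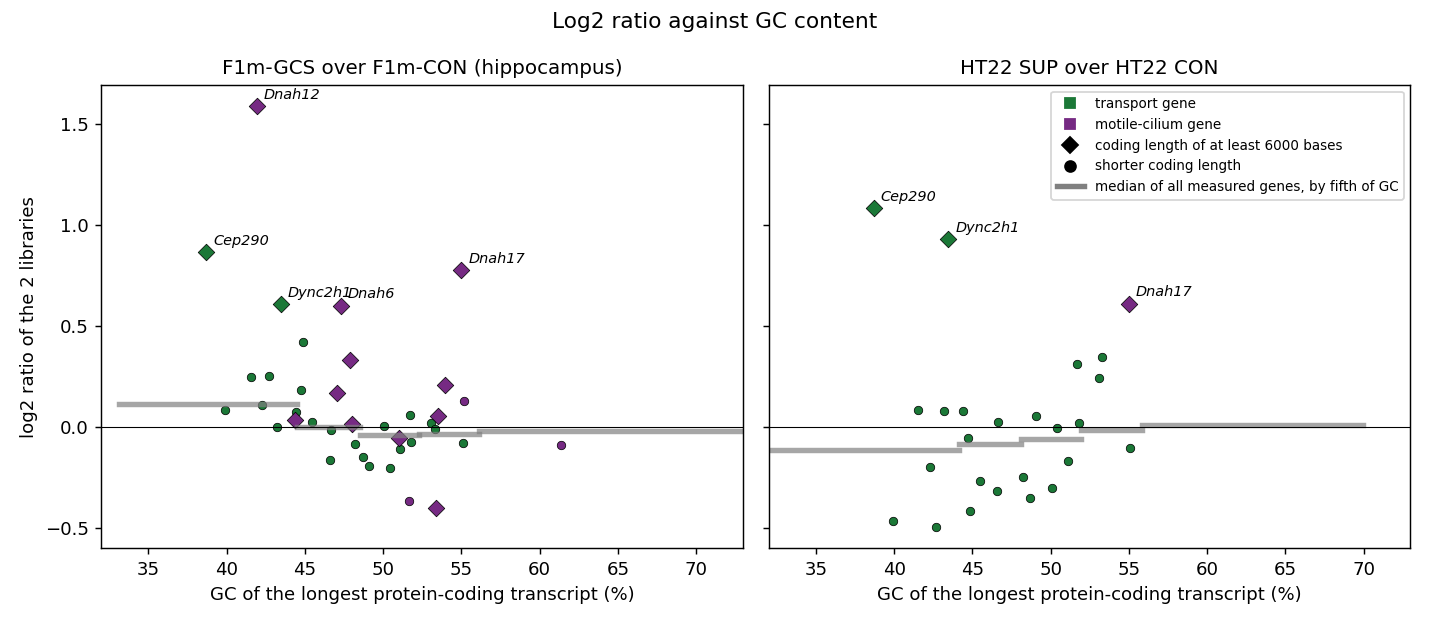
Log2 ratio of each measured member against the GC content of its longest protein-coding transcript, in hippocampus (left) and HT22 cells (right). Diamonds have at least 6000 coding bases, and grey bars are medians of all measured genes in 5 groups by GC. In hippocampus the highest diamonds Dnah12 and Cep290 have under 42% GC, and GC-rich diamonds lie near 0 apart from Dnah17 and Dnah1.

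Genes of the same processes under other symbols were also measured in the hippocampus, where 1.8% of all genes were higher and 0.904% lower by the 1.5-fold rule, so that counts of 0 in lists of this size are near the background. Of 26 measured transport partners, among them Wdr19, Wdr35 and Ttc21b of IFT-A and the kinesin-2 genes, 0 were beyond 1.5-fold and the median was 0.01. Of 16 transition zone genes 0 were beyond 1.5-fold, with a median of 0.01, and likewise 0 of 10 genes of cytoplasmic dynein 1, with 0.0053. Receptors of neuronal cilia had 0 of 7 beyond 1.5-fold and a median of 0.08. Hhip, a secreted inhibitor of the hedgehog pathway, had 166 reads in F1m-GCS and 111 in F1m-CON and a log2 ratio of 0.63 (0.28 to 0.99). After correction for length and GC it had 0.40, short of 1.5-fold.

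Other genes of motile cilia went both ways. Of 41 measured, 2 were higher and 3 lower in F1m-GCS by the 1.5-fold rule, beside 1.8% and 0.904% of all measured genes, with a median of -0.07. Ccdc39, needed to place the inner arms, had 702 reads in F1m-GCS and 428 in F1m-CON and 0.77 (0.59 to 0.94). Its GC was 39.9%, and after correction for length and GC it had 0.50, short of 1.5-fold, which left 1 of the 41 higher. Dnaaf3, a dynein assembly factor, had 76 reads in F1m-GCS and 48 in F1m-CON and 0.69 (0.18 to 1.27). Lower were Stoml3 at -1.42 (-2.22 to -0.80), Wdr65 at -1.29 (-2.06 to -0.68) and Wdr16 at -0.67 (-1.08 to -0.28), on 24, 26 and 86 reads in F1m-GCS and 70, 69 and 143 in F1m-CON. Stoml3 and Wdr65 reached 50 reads through F1m-CON and Dnaaf3 through F1m-GCS, so their direction follows from that minimum. Of 9 measured ependymal markers, a list that also holds Foxj1, 1 was lower, Sntn at -0.77 (-1.53 to -0.12), which reached 50 reads through F1m-CON, beside 0.904% of all genes, and 8 of 9 lay below 0, with a median of -0.06. Corrected for length and GC, these markers had a median of 0.04, with 4 of 9 below 0. Summed over 11 genes, none at 0, ependymal markers had 54.0 CPM in F1m-GCS and 57.8 in F1m-CON. Choroid plexus epithelium also bears cilia and expresses Foxj1. Its 15 markers, none at 0, summed to 2595 CPM in F1m-GCS and 3106 in F1m-CON, with a median log2 ratio of -0.43 and 14 of 15 below 0. By the 1.5-fold rule 3 of the 15 were lower and 0 higher, beside 0.904% and 1.8% of all measured genes. Of all 13392 measured genes 6854 lay below 0, the share to set beside both lists. The part of choroid plexus or ependymal tissue in the ratios of Foxj1, Dnah1 and the other motile-cilium genes was not tested.

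In HT22 cells 5.13% of all measured genes were higher and 2.89% lower by the same rule, and the counts of 0 or 1 below are near that background or rest on few genes. Of 25 transport partners 0 were beyond 1.5-fold, with a median of -0.05. Of 16 transition zone genes 1 was higher in SUP, Tctn1 at 0.59 (0.25 to 0.94), and the median was -0.14. Of 7 receptor-class genes of the cilium 2 were measured, and both were higher, with a median of 0.85. Some markers of other cell types were also higher in SUP, with medians of 1.34 over 4 measured neuronal markers, 1.27 for 1 astrocyte marker and 0.95 over 2 oligodendrocyte markers. Others were not, with a median of -0.42 over 2 fibroblast and meninges markers and -0.04 for 1 microglia marker. This 1 was Tmem119, with 49.7 RPKM in SUP and 59.6 in CON, above its 22.9 in F1m-GCS and 22.6 in F1m-CON. Its ratio therefore does not tell whether microglia RNA changed. The other microglia markers and all endothelium markers had under 50 reads in both HT22 libraries, and no ratio is given for them. The part of such cell types in the ratios of the receptor-class genes was not tested. Gpr161, a ciliary receptor that restrains hedgehog signalling, had 148 reads in SUP and 109 in CON and 0.91 (0.56 to 1.30), and Adcy3, the adenylyl cyclase of neuronal cilia, had 65 in SUP and 52 in CON and 0.78 (0.26 to 1.36). Of 8 measured hedgehog genes 1 was higher, the receptor gene Ptch1 at 0.60 (0.28 to 0.94), which had 0.29 after correction for length and GC. Among 11 measured genes of motile cilia 1 was lower, Ccno, with 19 reads in SUP and 58 in CON and -1.06 (-1.96 to -0.36). Ccno reached 50 reads through CON. After correction for length and GC 1 of the 11 was higher, Dnal1 at 0.62, and 2 were lower, Ccno at -1.03 and Dnal4 at -0.62. Ependymal markers had 3.34 CPM in SUP and 4.43 in CON, with 8 of 11 genes at 0 in SUP and 6 of 11 in CON. Rarres2 alone gave 37 of their 44 reads in SUP and 70 of their 81 in CON, so these sums are mostly 1 gene. Ccdc153, Fam183b, Dynlrb2 and Sntn were at 0 in both.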

How the data were processed

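Raw read counts and RPKM values of 22328 genes were taken from the deposited tables, which hold 1 library for each of 4 groups. Trim Galore removed adapters, TopHat2 mapped to mm10 (at most 2 mismatches, mapping quality 4 or more) and HTSeq counted read pairs, all by the authors, per the series' design text. Their versions are not named there. CASAVA 1.8 is named without a role, per the submitters' processing notes. Count columns hold deposited raw reads, not normalized. Deposited RPKM values are scaled by the gene length in the table and by 1000000 uniquely mapped reads, since recomputing them from the counts matched 100% of values within a tolerance of 1e-06 of the value plus 1. The deposited length was a multiple of 3 for 99.8% of protein-coding genes, so it is called coding length. No other value column was left unmapped.

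Libraries of a pair were scaled with TMM (edgeR 4.0.16, R 4.3.3). To the reads 2 were added, in proportion to library size, before log2 ratios were taken, and intervals are exact conditional (Clopper-Pearson) ones of the unadjusted counts. Measured genes had 50 reads or more in 1 library of the pair. With 1 library per group no test was run. The functions were tested on simulated data. CPM is per 1000000 reads in genes. Alternatives were total counts, size factors of DESeq2 1.42.0, 0.25 or 10 added reads, a minimum of 1, 10 or 200 reads, a correction for coding length (10 groups), 2 other size rules and, added after the values were seen, a correction for length and GC (10 by 5 groups). Members, lists, motifs and rules were chosen with earlier results of these data known. All 42 members could be named. Of the other lists, those beyond 1.5-fold and those of largest ratio could be named. Dnal1, Dnal4, Camk2a, Dcn, Lum, Tmem119, Pgs1, 4930430F08Rik, Arl6, Bbip1, Mkks, Lztfl1 and Ttc8 were chosen after their values were seen. Python 3.11.15 and scipy 1.17.1 were used. The count over the hedgehog list in hippocampus is not reported here.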

Additional observations from a re-analysis of the deposited data

Results flagged for a closer look

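Bbs10, the chaperonin-like assembly factor, was the measured member whose counting intervals lay on opposite sides of 0 under the supply of choline in tissue and in culture. Its log2 ratio was 0.42 for F1m-GCS over F1m-CON and -0.42 for HT22 SUP over HT22 CON. It was found by a search of all members measured in both comparisons. Of all measured genes, 20.9% had intervals above 0 and 18.8% below in hippocampus, and 22.4% above and 32.7% below in HT22. The share of all genes with intervals on opposite sides was not counted, so nothing is read from this 1 member. The difference was not tested, since each group held 1 library, and choline was given to dams in one comparison and to cells in the other. Corrected for length and GC, its ratio was 0.37 in hippocampus (0.08 to 0.67) and -0.35 in HT22 (-0.73 to 0.01), so that the HT22 interval then included 0. The counts were 224 in F1m-GCS and 173 in F1m-CON, and 96 in HT22 SUP and 180 in HT22 CON.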

How the results depend on the processing

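Scaling by total counts or DESeq2 size factors left each count of members beyond 1.5-fold as it was; between F1m-CON and HT22 CON total counts gave 13 transport genes 2-fold apart in place of 14, and no single ratio changed sign among members beyond 1.5-fold under any alternative run. In hippocampus the 2 transport genes beyond 1.5-fold became 1 with the correction for coding length, 0 with that for length and GC, 0 with the whole interval beyond 1.5-fold and 0 at 2-fold. The 3 motile-cilium genes became 1 with at least 200 reads, 1 with the whole interval and 1 at 2-fold. In HT22 the 2 transport genes became 1 at 2-fold. The 1 motile-cilium gene, Dnah17, became 0 with a prior count of 10, with either correction, with the whole interval and at 2-fold, and with 10 reads or no minimum 2 were beyond 1.5-fold, 1 higher and 1 lower. At 10 reads or more the HT22 median over 4 motile-cilium genes was -0.94, against 0.61 for Dnah17 alone, and at 200 reads none was measured. No paired analysis was possible because each group held 1 library, and no replicate could be left out. Of 553 single ratios under alternatives 530 stayed within their counting interval, and the 23 that did not were under the corrections for length (8) or for length and GC (15). Motile-cilium genes are limited by depth, with at most 3 reads in HT22 for most.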
